A study of Mus musculus with 2 samples.

Results

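The genes described here are 36 genes of the endothelium, the cell layer that lines blood vessels: pan-endothelial junction, surface and receptor genes, the transcription factors that keep endothelial identity, and markers of arteries, veins and activated endothelium. They form a list of names, chosen with earlier results of these data known, and were found on the arrays through the RefSeq accession of each probe, out of 20886 genes with a probe. All 36 had at least 1 probe, 45 probes in all, and 35 were measured on both arrays, meaning well above background and unsaturated on each. The remaining gene, Sele, was not well above background on either.

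The series holds 2 one-colour arrays of whole lung from mice of strain C57BL6/N, both labelled male and 6 weeks old, taken 14 days after bleomycin at 1.25 mg/kg into the trachea. Bleomycin damages the alveolar wall, and the lung then scars. The first array is of C57BL6/N lung without the transgene and the second of C57BL6/N lung with overexpression of HSP27 (heat shock protein 27, encoded by Hspb1) as a transgene. The series title asks how overexpressed HSP27 affects pulmonary fibrosis. The promoter and species of the transgene and the number of animals behind each RNA sample are not given in the sources used here, and no untreated lung was analysed here.

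With 1 array per group, the spread between animals is unknown, no test was possible and no p-value is given. Each value is the log2 processed signal minus the array's 75th percentile, and each difference is the transgenic minus the C57BL6/N array. The number of arrays limits the precision. Signal was well above background for 69.3% of 39429 probes in C57BL6/N and for 69.5% in transgenic lung, and no spot was saturated. Hspb1 read 41040 and 53554, a difference of 0.24, so the targeted gene was 1.18-fold higher at this mouse probe. Sex-linked transcripts went against the shared male label. Xist, the RNA of the inactive X chromosome, had C57BL6/N readings of 521 and 330 at its probes and transgenic readings that were not well above background, and the Y-linked Ddx3y and Eif2s3y read 508 and 800 on the same C57BL6/N array, also well above background. After scaling, the Y-linked Ddx3y, Eif2s3y and Uty were 3.77-fold to 4.33-fold higher on the transgenic array. Transcripts of heart muscle, fat and basal airway cells were also higher on the transgenic array. The summed scaled level of 12 heart muscle markers (linear signal of each gene's brightest probe over the array's 75th percentile) was 5.0 on the C57BL6/N and 39.7 on the transgenic array, that of 9 fat markers 1.56 and 23.7, and that of 5 basal cell markers 3.02 and 5.83, or 0.101 and 3.33 without Trp63. Every endothelial difference below lies between these same arrays. The sex-linked difference and the transgene cannot be told apart, and the part of heart, fat or airway tissue in the endothelial values was not tested.

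Endothelial cells hold their shape as a barrier through VE-cadherin and claudin junctions, and sense growth factors through the VEGF receptors and the TIE receptors. ETS factors such as ERG and FLI1 and the SOXF group (SOX7, SOX17, SOX18) maintain their identity. Notch signalling through DLL4 favours arterial fate, whereas COUP-TFII, encoded by Nr2f2, favours venous fate. In the lung most endothelium forms the capillary bed around the alveoli, which is the tissue that bleomycin injures.

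Most of these genes were lower in the transgenic lung. The median difference of the 35 measured genes was -0.65, or 1.57-fold lower, against -0.04 for all 15495 genes measured. Of the 35, 31 were below 0, where 8369 of the 15495 genes measured were. Of the same 35, 19 were at least 1.5-fold lower, where 8.31% of all measured genes were. Of these, 5 (Dll4, Tie1, Calcrl, Cldn5 and Robo4) were at least 2-fold lower, where 1.87% of all measured genes were. A single member, Selp, was at least 1.5-fold higher, where 10.2% of all measured genes were, and 0 members were at least 2-fold higher, where 3.81% were. With cyclic loess the shares of all measured genes past 1.5-fold were 6.27% lower and 12.5% higher, and the same 19 members and Selp passed. Of the 35, 21 lay in the lowest 10% of all measured differences and 1 lay in the highest 10%. In whole lung, fewer endothelial cells and less of these RNAs per cell cannot be told apart. The genes at least 2-fold lower numbered 3 instead of 5 with median scaling, with cyclic loess and with another background correction, since Cldn5 and Robo4 lie near that threshold (-0.96 and -0.95 with median scaling). They numbered 7 with the brightest probe of each gene, by which Kdr (-1.01) and Erg (-1.12) passed too.

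**Figure D1:**
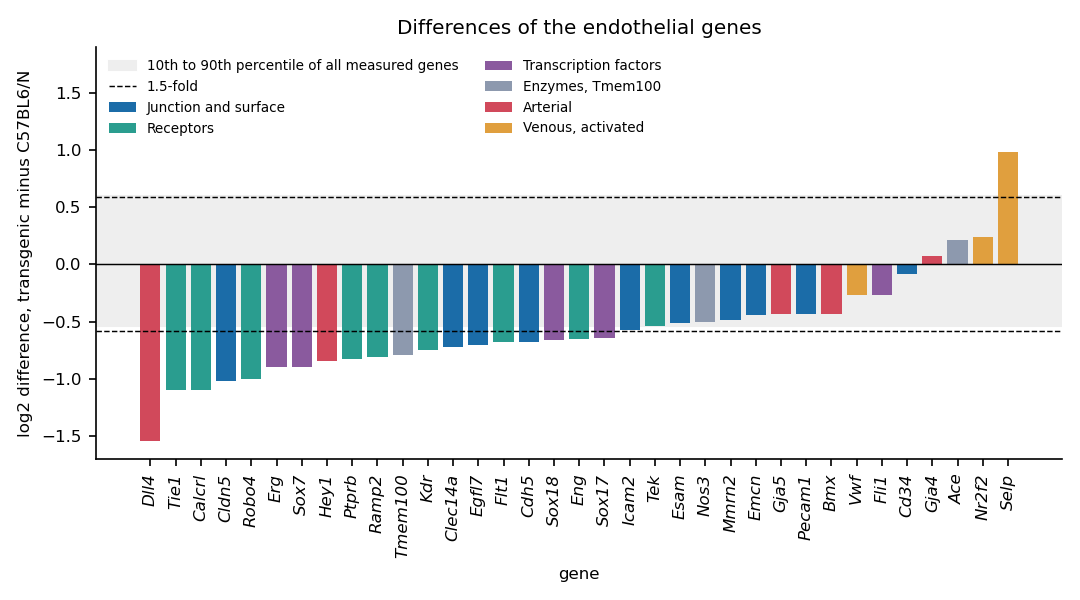
Bars show the log2 difference, transgenic minus C57BL6/N array, of each of the 35 measured endothelial genes, ordered from lowest to highest and coloured by role, from 1 array per group. The grey band spans the 10th to 90th percentile of all measured genes (-0.54 to 0.60) and dashed lines mark 1.5-fold; 19 bars pass the lower line and Selp alone passes the upper one.

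The promoters of the 5 genes at least 2-fold lower and of Selp, the 1 gene at least 1.5-fold higher, are shown to set genes with opposite differences side by side. Each sequence holds the 250 bases before the gene's start site on the gene's own strand, from RefSeq on GRCm38.p6. Both strands were searched for 6 motifs. These were the ETS factor core AGGAAG, the longer ETS core spelled ACCGGAA, the SOX factor core ACAAT, the forkhead factor core TAAACA, the GATA factor core AGATAA, and the TATA box spelled TATAAA. Matches of different motifs may overlap, and capitals mark every match.
Cldn5, chr16:18776597-18776846, plus strand: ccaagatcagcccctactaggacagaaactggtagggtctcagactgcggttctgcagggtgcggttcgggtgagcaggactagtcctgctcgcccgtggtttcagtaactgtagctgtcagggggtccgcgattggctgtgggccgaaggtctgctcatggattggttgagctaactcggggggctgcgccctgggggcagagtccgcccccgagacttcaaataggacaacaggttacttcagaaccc
Tie1, chr4:118489850-118490099, minus strand: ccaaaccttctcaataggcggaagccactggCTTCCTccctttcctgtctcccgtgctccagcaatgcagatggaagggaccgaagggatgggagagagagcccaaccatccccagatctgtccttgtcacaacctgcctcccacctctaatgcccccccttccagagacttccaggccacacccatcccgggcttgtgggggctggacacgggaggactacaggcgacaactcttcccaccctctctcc
Robo4, chr9:37401722-37401971, plus strand: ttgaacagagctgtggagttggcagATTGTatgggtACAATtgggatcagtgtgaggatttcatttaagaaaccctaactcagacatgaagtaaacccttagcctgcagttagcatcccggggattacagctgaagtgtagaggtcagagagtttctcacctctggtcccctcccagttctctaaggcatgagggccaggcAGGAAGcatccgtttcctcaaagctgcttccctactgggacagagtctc
Calcrl, chr2:84425267-84425516, minus strand: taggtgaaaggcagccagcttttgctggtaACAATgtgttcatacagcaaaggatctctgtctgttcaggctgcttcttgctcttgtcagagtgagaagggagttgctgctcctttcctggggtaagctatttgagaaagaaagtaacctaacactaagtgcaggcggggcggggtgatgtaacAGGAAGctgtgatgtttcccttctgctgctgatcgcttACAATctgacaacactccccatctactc
Dll4, chr2:119325534-119325783, plus strand: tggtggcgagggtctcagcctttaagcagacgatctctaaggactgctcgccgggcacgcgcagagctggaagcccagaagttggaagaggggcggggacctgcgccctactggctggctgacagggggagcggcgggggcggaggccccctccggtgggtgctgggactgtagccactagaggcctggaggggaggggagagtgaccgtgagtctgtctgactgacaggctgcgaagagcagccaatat
Selp, chr1:164115014-164115263, plus strand: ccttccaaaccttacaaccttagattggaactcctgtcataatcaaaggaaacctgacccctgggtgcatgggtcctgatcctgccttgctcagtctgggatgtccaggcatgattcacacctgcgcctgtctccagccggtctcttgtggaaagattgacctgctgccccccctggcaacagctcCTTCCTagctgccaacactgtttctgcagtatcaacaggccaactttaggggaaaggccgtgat
AGGAAG or its reverse complement occurred in the windows of Tie1, Robo4, Calcrl and Selp, so in genes of both directions. ACAAT occurred on either strand at 2 places each in Robo4 and Calcrl. The windows of Cldn5 and Dll4 held none of the 6 motifs. Of the 36 genes, 21 had an entry in the promoter table, with 26 promoters. AGGAAG was in 15 of these 26 (57.7%) and in 29.5% of all 32851 promoters of the table, ACAAT in 9 (34.6%) and in 27.7%, and TATAAA in 4 (15.4%) and in 12.4%. TAAACA was in 1 (3.85%) and in 12.0%, AGATAA in 1 (3.85%) and in 9.99%, and ACCGGAA in 0 and in 2.89%. A match is a description of letters and shows no binding.

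Junction and surface genes were all lower, by unequal amounts. All 10 were measured and below 0, with a median of -0.54, and 4 were at least 1.5-fold lower. Cldn5, the claudin that seals endothelial tight junctions, read 52394 in C57BL6/N lung and 28648 in transgenic lung. After scaling this was a difference of -1.02, or 49.3% of the C57BL6/N level. Cdh5, the VE-cadherin of adherens junctions, read 18090 and 12543, a difference of -0.68. Clec14a, a lectin-like receptor of endothelial cells, was at -0.72 over probes at -0.91 and -0.54, and at -0.54 by its brightest probe alone, short of 1.5-fold. Egfl7, a secreted protein that endothelial cells deposit in their matrix, read 159785 and 108805 (-0.70). The other members of this role stayed within 1.5-fold. Icam2, an adhesion molecule also carried by leukocytes and platelets, was at -0.57. Esam, an adhesion molecule of tight junctions, was at -0.52, and Mmrn2, a matrix ligand of CLEC14A, at -0.48. Emcn, a sialomucin of capillaries and veins, was at -0.44, and Pecam1, the CD31 antigen that blood cells also carry, at -0.43. Cd34, a sialomucin shared with blood progenitors and some stromal cells, read 54266 and 51408 at its brighter probe (-0.23) and 382 and 443 at its dimmer one (0.07), for a mean of -0.08.

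Receptors and their partners were all lower. The 9 differences ran from -1.10 to -0.54, and 8 were at least 1.5-fold lower (median -0.81, 1.75-fold). Tie1, the orphan partner of the angiopoietin receptor, read 3941 in C57BL6/N lung and 2036 in transgenic lung, a difference of -1.10. Tek (TIE2), the angiopoietin receptor itself, read 2550 and 1941 and was at -0.54, the smallest difference in this role and the only one short of 1.5-fold. Ptprb (VE-PTP), the phosphatase that restrains TIE2 and VE-cadherin phosphorylation, was at -0.81 and -0.85 at its probes, a mean of -0.83. The VEGF receptors were lower by similar amounts, with Kdr (VEGFR2, the main signalling receptor) at a mean of -0.75 over its probes. Flt1 (VEGFR1, largely a decoy) was at -0.68, with readings of 38978 and 26966. Calcrl and Ramp2 together form the adrenomedullin receptor. Calcrl read 1611 and 834 (-1.10) and Ramp2 read 94755 and 60046 (-0.81). Robo4, an endothelial roundabout receptor that stabilises vessels, read 20837 and 11522 (-1.0). Eng, the endoglin co-receptor for BMP9 signalling, read 8602 and 6072 (-0.65).

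**Figure D2:**
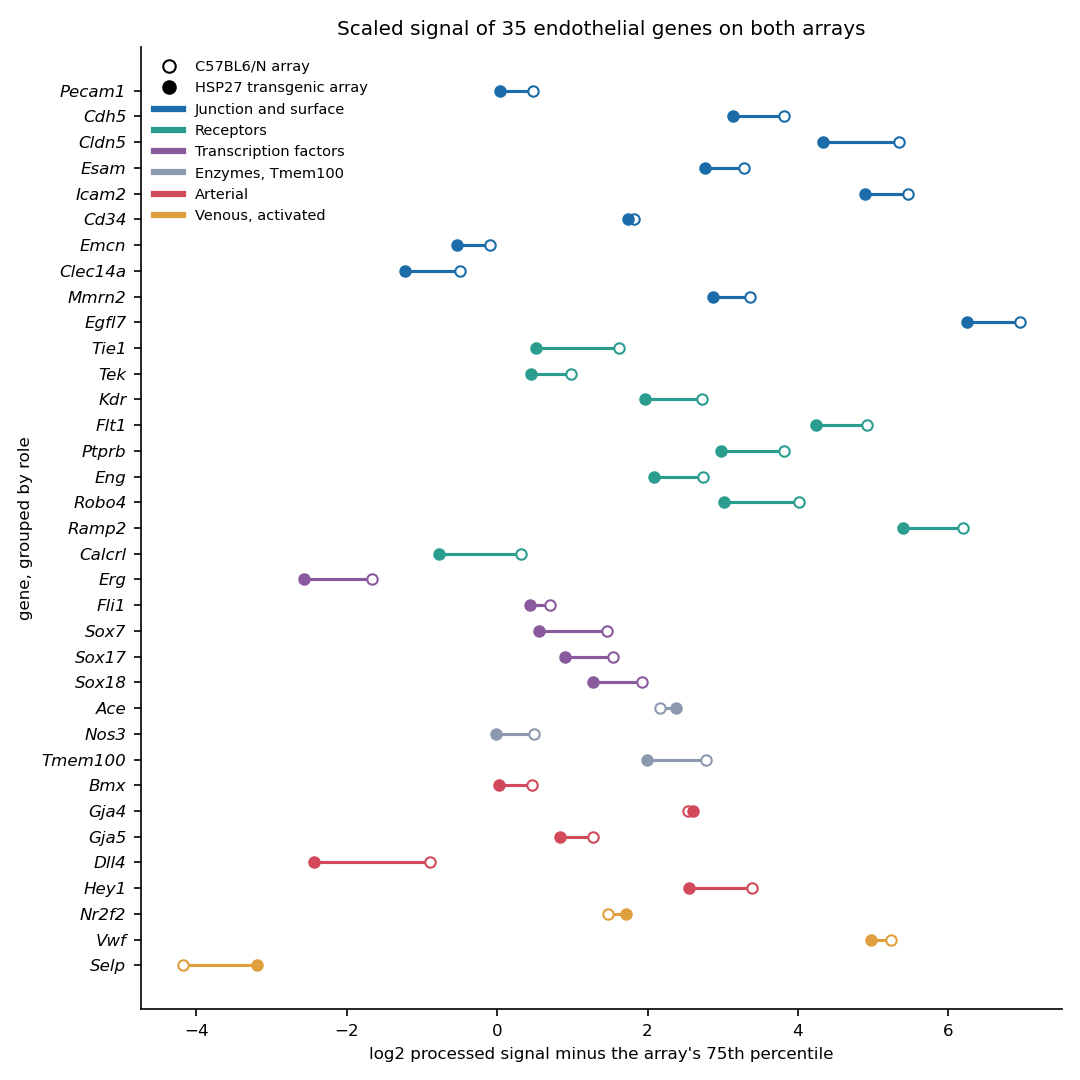
Each row is 1 of the 35 measured endothelial genes, grouped by role; the open point is the C57BL6/N array and the filled point the transgenic array, on the scale of log2 processed signal minus the array's 75th percentile (mean over the gene's usable probes, 1 array per group). The filled point lies to the left in 31 rows, and to the right for Gja4, Ace, Nr2f2 and Selp; positions of different genes along the axis depend on their probes and are not comparable.

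For 3 members a probe was printed in 10 spots on each array, which shows the spread of their values between spots directly. Spots of 1 array share a single RNA sample and are no replicates of a group. How many other probes printed in 10 spots also separate between the arrays is not given here. The Kdr probe printed 10 times read from 17345 to 18394 on the C57BL6/N array, with a median of 17640. On the transgenic array its spots read from 9371 to 10214, with a median of 9795. The spots did not overlap between arrays, also after scaling, and the difference at this probe was -1.01. The other Kdr probe, at 1 spot, read 4033 and 3196 (-0.48), so probes of the same accession differed by more than the spot spread. Nos3, the endothelial nitric oxide synthase, read from 732 to 823 over its C57BL6/N spots and from 550 to 617 over its transgenic spots. These ranges did not overlap either, and the difference was -0.55, beside -0.46 at the other Nos3 probe. Probes with at least 8 usable spots were split into 3 groups by signal. The SD of a paired spot difference was 0.13 in the dimmest, 0.06 in the middle and 0.05 in the brightest group. This is spread between spots alone and leaves out any shift shared by all spots of an array.

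**Figure D3:**
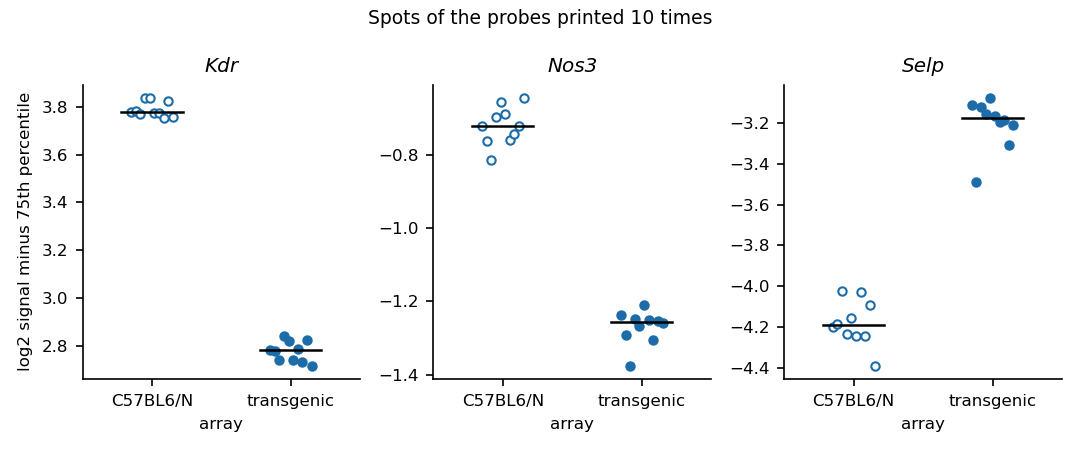
Points are single spots of the probes printed 10 times for Kdr, Nos3 and Selp, as log2 signal minus the array's 75th percentile, with a line at the median; open points are the C57BL6/N array and filled points the transgenic array, and the panels have separate axes. Spots of the arrays do not overlap in any panel, with Kdr and Nos3 lower and Selp higher on the transgenic array. How many other probes printed 10 times separate in this way is not given.

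The endothelial transcription factors were lower, Fli1 least. All 5 were below 0, 4 of them at least 1.5-fold lower, with a median of -0.66. Erg, an ETS factor that among vessel cells is largely restricted to endothelium, was at -0.90, from 963 to 490 (-1.12) at its brighter probe and from 170 to 118 (-0.68) at its dimmer one. Fli1, an ETS factor also made by leukocytes and megakaryocytes, read 2101 and 1936 and was at -0.27. All members of the SOXF group passed 1.5-fold. Sox7 was at -0.89 (from 3531 to 2106) and Sox18 at -0.66 (from 4913 to 3445). Sox17, which is enriched in arteries, was at -0.65, as the mean of probes at -0.85 and -0.44. Sox17 did not pass 1.5-fold by its brightest probe alone (-0.44), nor Sox18 with normexp background correction (-0.58).

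Ace, Nos3 and Tmem100 went different ways. Tmem100, a membrane protein induced by BMP9 and ALK1 signalling, read 8851 and 5655 (-0.79). Nos3 averaged -0.50 over its probes. Ace, the angiotensin-converting enzyme abundant on lung capillaries, read 5768 in C57BL6/N lung and 7412 in transgenic lung, a difference of 0.21. It was thus slightly higher, 0.86 above the median of the 35 genes.

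Among the arterial markers, differences ran from -1.54 to 0.07. Dll4, the Notch ligand of arterial and tip cells, had the lowest difference of all members, reading 692 and 264 (-1.54, or 2.91-fold lower). Only 0.290% of all measured genes had a lower difference. Hey1, a Notch target, read 13537 and 8354 (-0.84). The remaining arterial members did not reach 1.5-fold. Bmx, a kinase of arterial endothelium, was at -0.43 by 1 usable probe, while its other probe was not well above background on either array. Gja5 and Gja4 encode connexins 40 and 37, gap junction proteins of arteries. Gja4 read 7449 and 8684 (0.07), and Gja5 read 3107 and 2544 (-0.44) at its probe for NM_008121. The Gja5 probe for NM_001271628 passed background in transgenic lung alone, with readings of 12.5 and 23.7. Its bound was 1.71-fold higher there, which is simply the ratio of these readings after scaling. The C57BL6/N reading lies near the lowest signal called well above background on that array (11.9). The opposite direction of this Gja5 probe is therefore uncertain. Gja5 is made in atrial muscle as well as in arteries, and 4 of the 12 heart muscle markers were, like this probe, well above background on only the transgenic array. The part of heart tissue in the second Gja5 probe was not tested.

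Markers of veins and activated endothelium were not lower by their median, but were lower by their summed level. The median of the 3 measured was 0.24, which is the value of Nr2f2, with 0 at least 1.5-fold lower and 1 at least 1.5-fold higher. The summed scaled level of the 4 genes with a probe was 40.5 on the C57BL6/N and 34.7 on the transgenic array, with Vwf the brightest. Nr2f2, the venous factor, which stromal cells also make, read 3584 and 4687 (0.24). Vwf, the von Willebrand factor stored by venous endothelium and megakaryocytes, read 48481 and 44641 (-0.27). Selp, the P-selectin that captures leukocytes and is stored by venular endothelium and platelets, read from 61.4 to 79.2 over its 10 C57BL6/N spots and from 127 to 169 over its transgenic spots. The spots did not overlap, and the difference was 0.98, or 1.97-fold higher, which shrank to 0.59 with normexp background correction. Sele, the E-selectin of inflamed endothelium, read 5.06 and 9.06, not well above background on either array.

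Values of other cells that carry some of these transcripts were set beside them. For the list counts from here on, 8.31% of all measured genes were at least 1.5-fold lower and 10.2% higher. Among 8 platelet and megakaryocyte markers, 5 passed 1.5-fold downward and 0 upward (median -0.75, or -0.46 with normexp). Of these 5, Gp6 (readings of 52.9 and 26.0) and Itga2b (94.1 and 60.2) were dim. Brighter than these were Ppbp (971 and 507, a difference of -1.09), Gp9 (435 and 284, -0.76) and Clec1b (-0.75 over 3 probes). Pf4, a platelet chemokine, was at 0.05. All 8 were measured on both arrays, and their summed scaled level was 6.96 on the C57BL6/N and 6.21 on the transgenic array, or 2.30 and 1.40 without Pf4. Among 7 pan-leukocyte markers, 0 passed 1.5-fold downward and 2 upward, with a median of 0.19 and a summed level of 52.1 and 58.5. Lymphatic endothelial markers had a median of -0.09 over 4 measured genes. Prox1, the factor that defines lymphatic endothelium, and Reln were not well above background on either array. Lyve1, a lymphatic receptor that some macrophages also carry, was at -0.66, and the summed level of 6 lymphatic markers was 40.5 and 31.8. Without Pdpn, which alveolar type 1 cells also make, that sum was 7.04 and 4.78. Pericyte markers had a median of 0.02 over 11 genes, with 2 past 1.5-fold upward, 0 downward and a summed level of 38.3 and 37.5. The part of these cells in the endothelial values was not tested.

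Endothelial genes outside the 36 were also mostly lower. Of 57 genes, all measured, 41 were below 0, 24 were at least 1.5-fold lower and 4 higher, and the median was -0.36. Of all measured genes, 8.31% were at least 1.5-fold lower and 10.2% higher, to be set beside each list count. Endothelial and vascular transcription factors had the lowest median of these lists (-0.63, with 8 of 15 lower and 1 higher). Klf2, the factor induced by laminar flow, was at -1.07 and Foxf1, a factor of lung mesenchyme and endothelium, at -0.95, whereas the ETS repressor Etv6 was at 0.71. Among genes of ALK1 and BMP signalling, 4 of 8 were lower and 0 higher (median -0.38), led by the inhibitory Smad6 (-1.01) and the receptor Bmpr2 (-0.92). Among Notch and ephrin genes, 2 of 10 were lower and 1 higher (median -0.16). Efnb2, the ephrin of arteries, was at -0.95 and Notch4, the endothelial Notch receptor, at -0.78. Ephb4, an ephrin receptor that marks veins, was also below 0, at -0.56 and short of 1.5-fold. The Notch target Hey2, also a heart gene, was at 0.66, with dim readings of 30.4 and 53.3.

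Of 24 other endothelial surface and membrane genes, 10 were at least 1.5-fold lower and 2 higher (median -0.42). Cav1, the caveolin that alveolar type 1 cells also make, was at -1.08, and the apelin receptor Aplnr at -0.93. The higher ones were Scarb1, a lipoprotein receptor (0.62), and Ackr1. Scarb1 was at 0.28 by its brighter probe alone, short of 1.5-fold, and at 0.97 by its dimmer one. Ackr1, the atypical chemokine receptor of venules, read 72.0 and 463, a difference of 2.54 or 5.81-fold higher, in the direction of Selp. The C57BL6/N reading of Ackr1 was about as dim as that of Selp, and its value with normexp background correction is not given here.

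**Figure D4:**
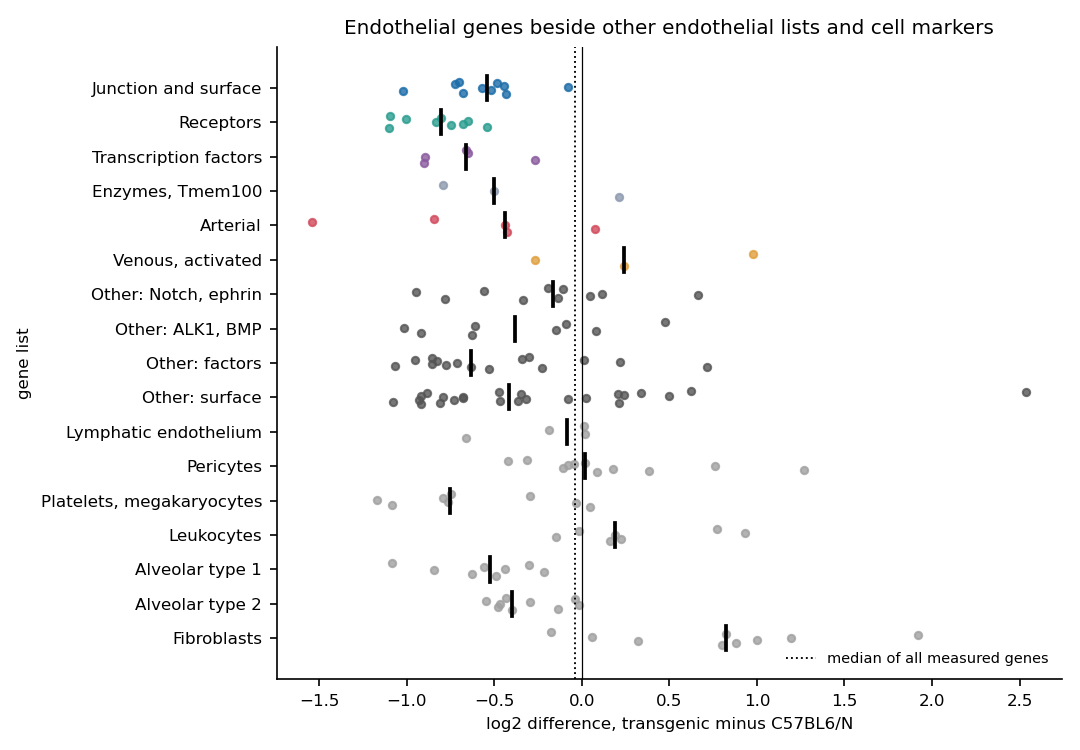
Points are genes and black bars list medians of the log2 difference, transgenic minus C57BL6/N array, for the endothelial roles (coloured), other endothelial lists (dark grey) and markers of other cells (light grey); the dotted line is the median of all measured genes (-0.04). Receptors have the lowest median among the endothelial roles (-0.81) and venous genes the highest (0.24); the heart muscle, fat and basal cell lists, whose medians were from 3.37 to 4.08, lie outside the range and are not drawn.

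The alveolar epithelium, which lies against the capillaries, had lower values on the same array. Of 8 measured alveolar type 1 cell markers, 8 were below 0 and 3 at least 1.5-fold lower, with a median of -0.53. Vegfa, the ligand of Kdr and Flt1 that these cells make, was at -1.08 and Clic5, a chloride channel protein, at -0.84. All 9 alveolar type 2 cell markers were below 0 but within 1.5-fold (median -0.40). Fibroblast markers were higher, 6 of 9 past 1.5-fold upward and 0 downward (median 0.82). The median of the 35 measured members (-0.65) was thus below those of the alveolar lists. That of the 57 endothelial genes outside the members (-0.36) was above both alveolar medians. No test of these differences between lists was made.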

How the data were processed

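Per the file headers, the array files deposited by the authors give an intensity for every spot, made with Agilent Feature Extraction 11.5.1.1, with background subtracted and trends removed within the array and no scaling between arrays. Flags for each spot were read as well. The deposited series table is also a linear intensity and equalled the processed signal within 0.1% for all probes with 1 spot.

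Control and outlier spots were left out, log2 signals were averaged per probe, and each array's 75th percentile was subtracted. A probe was used if at least 50% of its spots were well above background and unsaturated on both arrays, and usable probes of a gene were averaged. Accessions were matched without version to the RefSeq table of GRCm38.p6, which named 27508 of 39429 probes (69.8%). The array headers name mm9, so that table gave names alone. A gene well above background on 1 array has a bound, set against the dim probe's own signal or, if greater, the weakest signal called well above background. The scaling and the averaging per gene were run on simulated probe signals with known changes. Spot flags, background correction, bounds and the spread between animals were not part of that simulation.

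Members and lists were chosen with earlier results of these data known. All members and their probes were named, and of each other list up to 2 of the highest and 2 of the lowest past 1.5-fold. Prox1 and Reln, not well above background on either array, were named after their values were seen. So were Ephb4, Ppbp, Gp9, Clec1b, Gp6 and Itga2b. Motifs were searched in the promoter table as described. Alternatives were cyclic loess, quantile normalization, median scaling, normexp (offset 50), no filter or a stricter filter on dim probes (at least 4 times the lowest signal well above background), outlier spots kept, the brightest probe and the deposited table. Normexp used median signals and left out spots whose local background reached their signal. Tools were Python 3.11.15, numpy 2.4.6, pandas 2.3.3, matplotlib 3.10.9, R 4.3.3 and limma 3.58.1.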

Additional observations from a re-analysis of the deposited data

How the results depend on the processing

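No member past 1.5-fold changed sign under any of these alternatives. Of the 19 members at least 1.5-fold lower, 18 stayed so with normexp, 17 with the brightest probe, and 19 under each other alternative. Members at least 2-fold lower numbered 3 with normexp, median scaling and cyclic loess and 7 with the brightest probe, and Selp passed 2-fold upward (1 member) with median scaling, quantile normalization and cyclic loess. Without the filter on dim probes, 2 members were at least 1.5-fold higher, the arterial median was -0.84, the venous median 0.47, Bmx was at -0.95 and Gja5 at 0.17. With normexp the medians were -0.74 for receptors, -0.38 for arterial genes, -0.54 for the other factors and -0.10 for the other Notch and ephrin genes, and the last was also -0.10 with cyclic loess. With the brightest probe the medians were -0.57 for all members, -0.52 for the other surface genes and -0.030 for the other Notch and ephrin genes. These moves follow from fewer or more probes where the filter or the probe rule changed; for the other settings the cause was not tested. The share of all measured genes at least 1.5-fold lower ran from 4.40% with normexp to 9.96% without the filter, and that of higher ones from 6.33% to 12.5%. No paired analysis was possible because each group has 1 array, and no array could be left out. Signal near background limits Sele, the second probes of Bmx and Gja5, and Selp. Outside the members it limits Hey2, Gp6, Itga2b and, on the C57BL6/N array, Ackr1.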
